A study of Drosophila melanogaster with 4 samples.

Results

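Basic helix-loop-helix (bHLH) transcription factors outside the Enhancer of split complex were looked up among the genes with Prospero binding peaks in the larval Drosophila brain. The set held 44 genes, out of 13946 that code for protein on the chromosome arms of the reference annotation. They were chosen by name, and a gene counted as listed when its exact symbol stood in the gene name or the symbol column of the authors' deposited table. Of the 44 members, 15 were listed (34.1%, exact 95% interval 20.5 to 49.9), beside 7.76% of all protein-coding genes. The interval covers counting error over the named genes only.

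Binding was mapped by targeted DamID in brains dissected from 3rd instar larvae. In this assay a bacterial adenine methylase (Dam), fused to a chromatin protein, marks GATC sites near the places where the protein sits. The 4 samples carried Dam on full-length Prospero (Pros-FL), Dam on the Prospero form Pros-ΔN7, Dam on the heterochromatin protein HP1a, or unfused Dam as the background, and the design text gives 3 biological replicates of each. Expression in all 4 was driven by GMR71C09-GAL4 and restrained by the temperature-sensitive GAL4 repressor Gal80ts. The DNA came from whole brains, while the series title places the profiles in central brain neural precursors and neurons. The table names genes and carries no peak height, position or replicate value. Depth is therefore unknown, no spread between replicates could be computed, and no comparison between the samples was made. The sources used here do not state whether Pros-FL or Pros-ΔN7 gave the list. A gene described below as not in the table is one not found among the entries analysed here.

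bHLH proteins bind DNA as dimers. The helix-loop-helix holds the dimer together. In many of these dimers, though not in all, the basic region of each partner contacts a short palindrome called an E-box. Proneural members start neural fate in the ectoderm, and their relatives act later in chosen neuron types. Other branches carry a leucine zipper (growth and metabolism), a PAS domain (midline, trachea, clock, hypoxia and hormone response) or an Orange domain (repressors that act with Groucho). Prospero is a homeodomain protein that acts in the daughters of neuroblasts, the neural stem cells of the fly, where it ends division and starts differentiation. The name of the set covers most but not all of its genes. Knot (kn) belongs to the COE family, whose helix-loop-helix lacks the usual basic region, and emc encodes an inhibitor without a basic region. Without kn, 14 of 43 members were listed (32.6%).

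The share of listed genes ran unevenly over the classes. Neuronal differentiation members stood at 4 of 7 (57.1%, exact 95% interval 18.4 to 90.1), proneural members at 3 of 7 (42.9%, 9.9 to 81.6) and bHLH-PAS members at 4 of 10 (40%, 12.2 to 73.8). Growth or metabolic members stood at 1 of 8 (12.5%, 0.316 to 52.7), and none of the 4 mesodermal members was listed (0%, 0 to 60.2). The intervals of these classes overlap one another, and the differences between classes were not tested. The 3 classes listed first have intervals that begin above the 7.76% of all protein-coding genes. Both other intervals include that share. The members and classes were chosen with earlier results of these data known, so where the intervals begin is a description and not a test. For bHLH-PAS genes, which are long, the share listed among protein-coding genes of their length deciles (10 equal groups by gene length) is 18.7%, and their interval includes it.

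**Figure D1:**
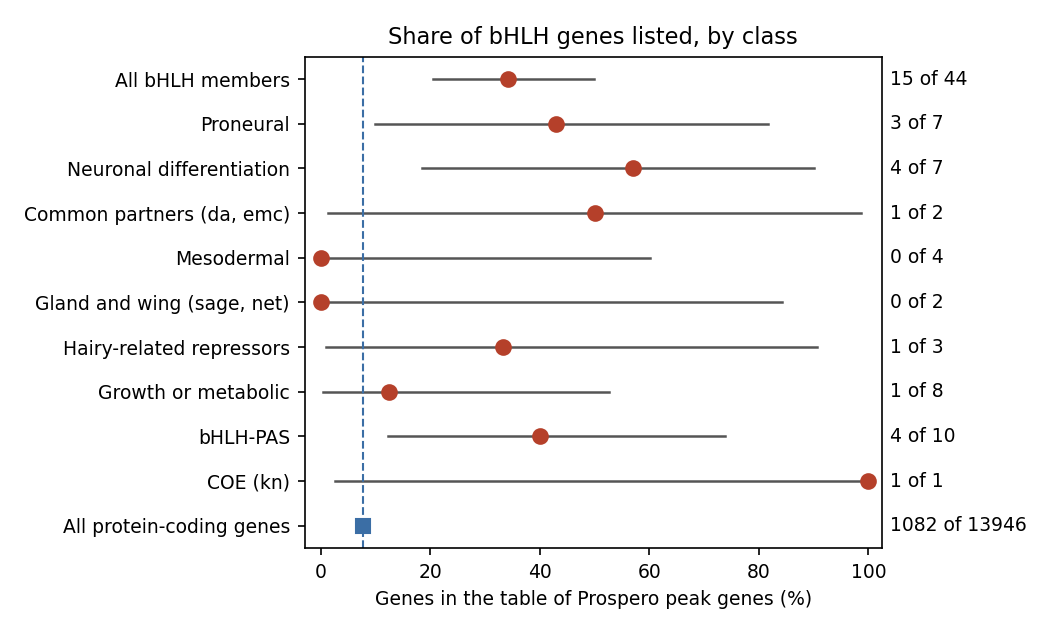
Share of bHLH genes in the table of Prospero peak genes, in percent, by class (circles) with exact 95% intervals (lines) and counts at the right. The square and the dashed line mark the 7.76% of all protein-coding genes. The intervals of the proneural, neuronal differentiation and bHLH-PAS classes begin to the right of that line, which takes no account of gene length, and those of the other classes cross it.

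Among the proneural genes, l(1)sc (FBgn0002561), ato (FBgn0010433) and tap (FBgn0015550) were in the authors' deposited table. Lethal of scute is the achaete-scute member most widely used in neuroblast formation, atonal is the proneural gene of photoreceptors and chordotonal organs, and tap is the fly relative of the vertebrate Neurogenins. The members ac, sc, amos and cato were not in the table. Achaete and scute make external sense organs, amos makes olfactory and multidendritic neurons, and cato acts after ato in sensory precursors. Each family was therefore divided. In the achaete-scute complex, l(1)sc and the neuroblast gene ase (FBgn0000137) were listed while ac and sc were not, which is 2 of 4 genes. Of the atonal relatives ato, amos and cato, 1 of 3 was listed.

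The achaete-scute complex on the X chromosome showed the division at neighbouring genes. In the gene order of the reference annotation sc lies directly beside l(1)sc, and Pgcl lies between l(1)sc and ase. Neither sc nor Pgcl was in the table, so l(1)sc and ase were separate entries and no unbroken run of listed genes covered the complex. The annotated span of CG32816, which is in the table, overlaps ac, sc, l(1)sc and ase. The yellow gene (y), the nearest coding gene on the other side of ac, was listed as well. From names alone, a peak within the l(1)sc gene and a peak elsewhere in the complex cannot be told apart.

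Of the neuronal differentiation genes, Oli (FBgn0032651), Fer1 (FBgn0037475), Fer2 (FBgn0038402) and HLH4C (FBgn0011277) were listed. Oli, the fly relative of the vertebrate Olig factors, acts in motor neuron development. Fer2 is needed in clock neurons and dopaminergic neurons of the fly brain. Fer1 is the relative of the vertebrate Ptf1a, and HLH4C that of the vertebrate NHLH (HEN) factors. The members dimm, Fer3 and HLH3B were not in the table. Dimmed promotes the secretory state of peptidergic neurons, and HLH3B is the relative of the vertebrate TAL factors. Taken with the proneural class, 7 of 14 neural members were listed (50%, 23 to 77).

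Both common partners of the neural bHLH proteins were looked up. The inhibitor emc (FBgn0000575), which binds proneural proteins and Daughterless and keeps them off DNA, was listed. Daughterless (da), the E protein with which proneural proteins form active dimers, was not. Of the Hairy-related repressors among the members, Hey (FBgn0027788) was listed, and the segmentation gene h and the clock repressor cwo were not. Hey is known in the fly brain as a Notch target in newly born neurons.

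The bHLH-PAS genes in the authors' deposited table were sim (FBgn0004666), trh (FBgn0262139), ss (FBgn0003513) and Clk (FBgn0023076). Single-minded is the master gene of the central nervous system midline, trachealess that of the trachea, spineless sets antennal and ommatidial identity, and Clock is the activator of the circadian loop. The members tgo, sima, Met, gce, cyc and dys were not in the table. They encode the shared partner Tango, the hypoxia factor Similar, the juvenile hormone receptors Methoprene-tolerant and Germ cell-expressed, the Clock partner Cycle, and the tracheal fusion factor Dysfusion. Neither of the 2 juvenile hormone receptors was listed.

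Among the growth or metabolic genes, Mnt (FBgn0023215), a repressor that competes with Myc for Max, was listed. The others were not, namely Max, the carbohydrate-sensing factor gene Mondo and its partner gene bigmax, the lysosome regulator Mitf, the sterol regulator SREBP, Usf and crp. Myc itself (FBgn0262656), which is not among the 44, was in the table. Of the network of Myc, Mnt and Max, 2 of 3 genes were therefore listed. The mesodermal members, all not in the table, were twi and nau, which specify mesoderm and muscle founders, HLH54F of the caudal visceral mesoderm, and Hand of the heart. The salivary gland gene sage and the wing vein gene net were not in it either (0 of 2). The remaining member, kn (FBgn0001319), which specifies peptidergic neurons and dendrite form in the nervous system and has further roles in blood and wing, was listed.

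Several members form dimers with 1 shared partner, and a set of 15 textbook pairs was drawn up after the table had been seen. In the pairs, da joins the 7 proneural members, tgo joins sim, trh, ss, sima and dys, cyc joins Clk, Max joins Mnt, and bigmax joins Mondo. Within this set only da and tgo are shared by more than 1 member. Of the 15 specific members, 8 were listed, beside 1.16 at the overall share of protein-coding genes. None of the 5 partners da, tgo, cyc, Max and bigmax was listed. The inhibitor emc, which also binds proneural proteins and was listed, is not counted among these partners. For tgo, 3 of 5 specific members were listed, beside 0.388 at the overall share. All 5 lie in the longest length decile, where 26.2% of protein-coding genes were listed. For da, 3 of 7 were listed, beside 0.543 at the overall share and 0.296 at their decile shares. As the pairs were drawn up with the listing in view, the contrast is a description, and it was not tested. It also takes no account of gene length. The 5 partners lie in length deciles 3 to 8, where 3.87 to 6.81% of protein-coding genes were listed. Clk, Mnt, Mondo and the members paired with tgo lie in deciles 9 and 10, where 19.4% were listed. At the background share of 7.76%, 0.388 of 5 genes would be listed, so a count of 0 is close to the background.

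The genes around the members in their pathways were read from lists drawn up from general knowledge of each pathway, with earlier results of these data known, so their counts are not independent evidence. Of 14 further bHLH genes, the authors' deposited table named 10 (71.4%, exact 95% interval 41.9 to 91.6). At the shares of their length deciles 1.13 of the 14 would be listed. The 10 were ase, dpn, 6 of the 7 E(spl) bHLH repressors, Sidpn (FBgn0032741) and Myc. E(spl)m3-HLH, the steroid receptor coactivator gene tai, tx and CG33557 were not listed. The E(spl) genes adjoin one another, so their entries are not separate observations. With the 44 members, 25 of 58 bHLH genes were listed (43.1%), beside 7.76% of all protein-coding genes. Over the Hairy-related repressors as a whole, 9 of 12 were listed, the exceptions being h, cwo and E(spl)m3-HLH.

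Genes that act with proneural factors were listed for 5 of 8. These were the zinc finger genes chn and scrt, the ubiquitin ligase gene neur, the adaptor gene phyl and the co-repressor gene gro, while sens, CtBP and pnr were not in the table. At the shares of their length deciles 1.3 of the 8 would be listed. Of 6 partners of Clk and cyc in the clock, vri was listed, beside 0.954 at their decile shares, and per, tim, Pdp1, cry and dco were not. Partners and targets of the other PAS proteins were listed for 4 of 10, beside 1.24 at their decile shares. These were the Sox gene D, the midline repellent gene sli, the hormone response gene Kr-h1 and the antennal identity gene dan, while vvl, btl, bnl, Hph, Vhl and danr were not. Of 8 genes of the mesoderm network only sna, which also acts in neuroblasts, was listed, beside 0.772 at their decile shares, and Mef2, lmd, tin, bap, bin, dl and htl were not. Of 5 growth and lipid genes, the fatty acid synthesis genes FASN1 and ACC were listed, beside 0.692 at their decile shares, and SCAP, S1P and Tor were not. The counts of the clock and mesoderm lists are thus near those of genes of their length.

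Gene length was set beside listing, because long genes were listed more often in this table. The share of protein-coding genes listed was 4.59% in the shortest length decile and 26.2% in the longest. Lengths are spans in the reference annotation. The 15 listed members ran from 1097 to 34412 bp with a median of 4093 bp, and the 29 members not in the table from 712 to 63488 bp with a median of 4178 bp. Of the 29, 23 lay within the range of the listed members, 4 were shorter and 2 longer. Over all protein-coding genes the median was 6486 bp for those listed and 2066 bp for those not in the table. With the share of each member's own length decile, 5.04 of 44 members would be listed, beside 15 observed and 3.41 at the overall share.

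**Figure D2:**
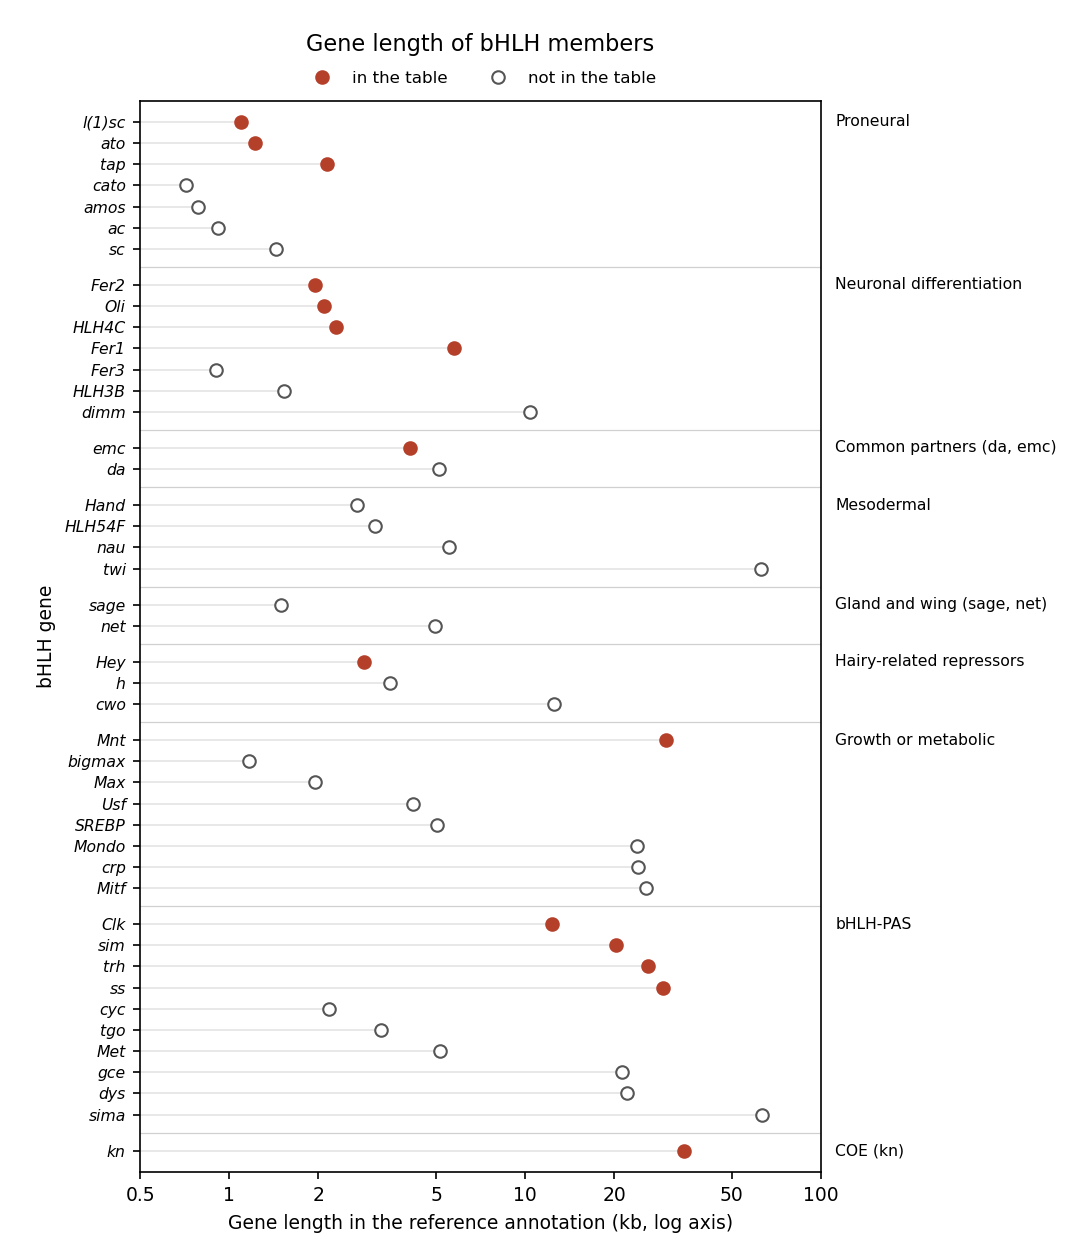
Length of each of the 44 bHLH genes in kb on a log axis, grouped by class, with filled circles for genes in the table of Prospero peak genes and open circles for genes not in it. Listed proneural genes are 1097 to 2130 bp long, while listed bHLH-PAS genes are 12371 to 29257 bp long.

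Length was then read within the classes. The 7 listed proneural and neuronal differentiation genes were 1097 to 5767 bp long (median 2084 bp), and the 7 not in the table were 712 to 10400 bp long (median 917 bp). These genes lie mostly in deciles where under 7% of protein-coding genes were listed. At the shares of their deciles 0.296 of the 7 proneural genes and 0.425 of the 7 neuronal differentiation genes would be listed, beside 3 and 4 observed. The listed bHLH-PAS genes were 12371 to 29257 bp long (median 23240 bp), and the others were 2169 to 63488 bp long (median 13233 bp). At the shares of their deciles 1.87 of the 10 would be listed, beside 4 observed.

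In the longest decile, 3 of 6 bHLH-PAS genes were listed (sim, trh and ss, with sima, gce and dys not in the table), beside 26.2% of all protein-coding genes of that decile. In the same decile 1 of 4 growth or metabolic genes was listed, Mnt, with crp, Mondo and Mitf not in the table. That count is near the share of the decile. The growth or metabolic class would have 1.27 of 8 genes listed at its decile shares, beside 1 observed. Mesodermal genes would have 0.434 of 4 listed, beside 0 observed. For both classes the observed count lies within 1 gene of the count at their decile shares.

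**Figure D3:**
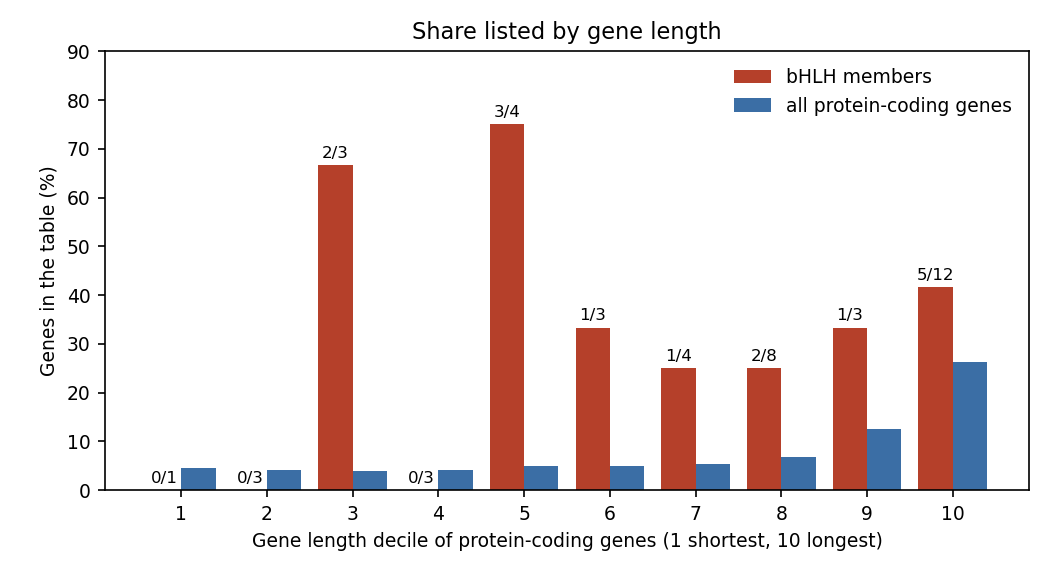
Percent of genes in the table of Prospero peak genes by length decile of protein-coding genes, with bHLH members at the left of each pair of bars (counts above the bars) and all protein-coding genes at the right. Members stand above all protein-coding genes in deciles 3 and 5 to 10, and no member of deciles 1, 2 and 4 was listed.

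Over deciles 1 to 8 together, 9 of 29 members were listed (31%), beside 4.85% of protein-coding genes there. Over deciles 9 and 10, 6 of 15 members were listed (40%), beside 19.4%. The member counts per decile are small, from 1 to 12 genes.

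A table of names can list a gene because a peak nearby was assigned to it, so the neighbours of each member were read in the gene order of the reference annotation. The order of protein-coding genes alone, with non-coding genes skipped, was read first. In that order the nearest coding gene on at least 1 side was listed for 8 of the 15 listed members (53.3%), beside 68.4% of all listed protein-coding genes. The same held for 7 of the 29 members not in the table (24.1%), beside 8.95% of all protein-coding genes not in the table. Listed genes thus lay beside other listed genes more often than genes not in the table did, over all protein-coding genes as well as among the members.

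The order of all genes, coding and non-coding, was read next. In that order the genes at the next position on either side of l(1)sc, ato, Mnt, sim, trh, ss and Clk were not listed. Of these, l(1)sc is overlapped by the listed gene CG32816, and the nearest coding gene on 1 side of trh, CG13891, was listed. For ato, sim, ss and Clk none of the 5 genes on either side was listed. For trh, the listed long non-coding RNA lncRNA:CR43969 and the listed coding genes CG13891 and klar lay 2 to 4 positions away. The clock gene Pdp1 lies 3 genes from Clk and was not in the table.

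The other 8 listed members stood in unbroken runs of 2 to 8 listed genes in the order of all genes. Among all listed protein-coding genes, 760 of 1082 (70.2%) had a listed gene of any kind directly beside them. Standing in a run is therefore not particular to the members. The longest run was that of Oli, with 8 genes, of which 7 were non-coding. They were mir-287 and the long non-coding RNAs lncRNA:CR45358, lncRNA:CR45698, lncRNA:CR45111, lncRNA:CR45112, lncRNA:CR44411 and lncRNA:CR44410, so Oli was the only coding gene there. The annotated span of lncRNA:CR44410 overlaps Oli. The run of tap held 5 genes, including the cadherin gene Cad74A, CG7692, CG13728 and lncRNA:CR45688. That of Fer1 also held 5, with CG31493, CG14610, asRNA:CR42738 and tRNA:Gly-TCC-1-2, and that of Hey 5, with Dic3, CG11191, Odc1 and lncRNA:CR44272. The runs of HLH4C (with CG3081, CG3062 and mRpL30) and emc (with hng3, lncRNA:CR43785 and tRNA:iMet-CAT-1-3) held 4 genes each. The run of kn held 3 (with hui and Pgm2b) and that of Fer2 held 2 (with CG6006). Which gene of a run a peak belongs to cannot be told from the names.

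**Figure D4:**
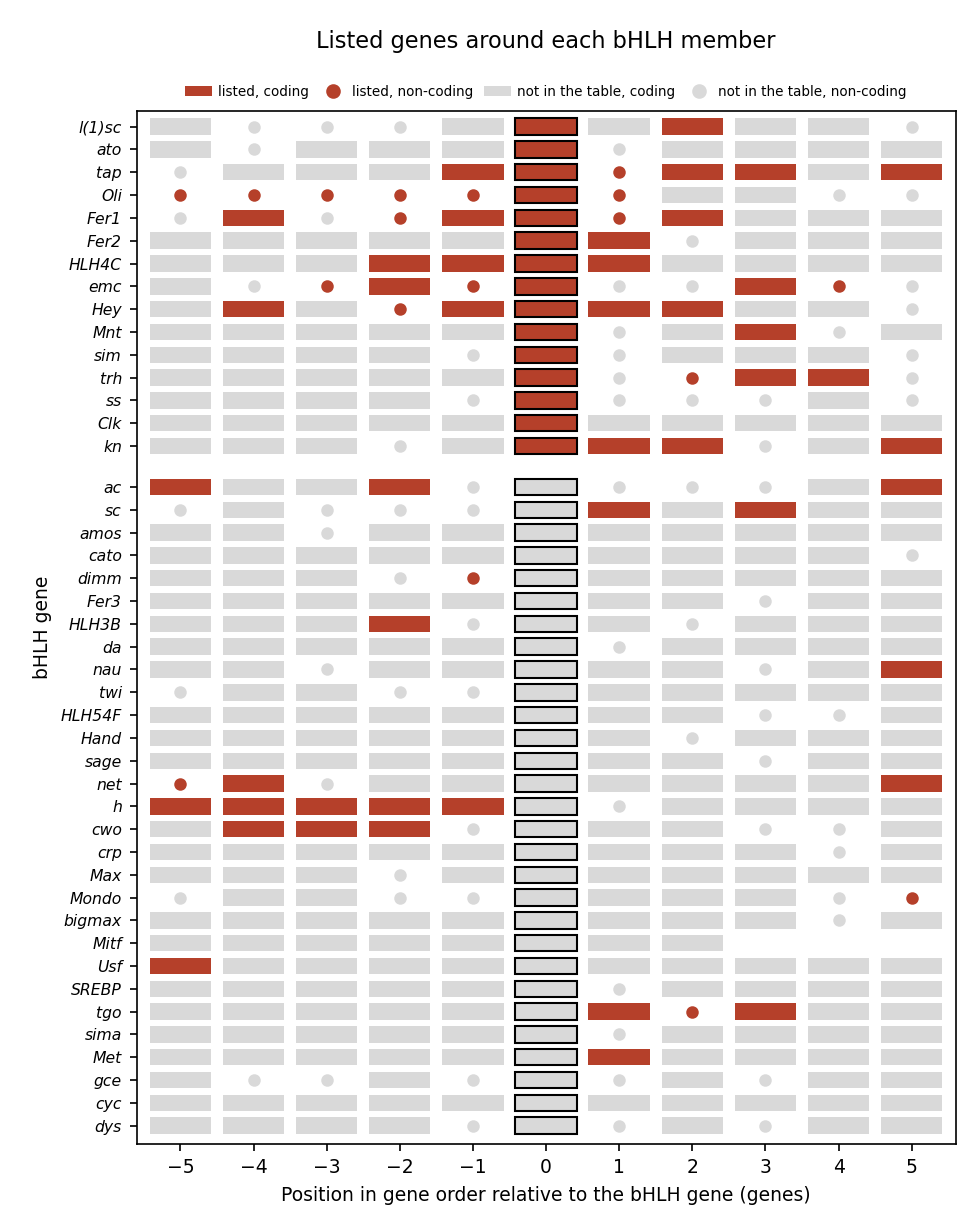
Genes at 1 to 5 positions on either side of each bHLH member in gene order, with coding genes as boxes and non-coding genes as circles, coloured where the gene is in the table of Prospero peak genes. The 15 listed members are above and the 29 members not in the table below. Rows such as Oli and Hey are coloured on both sides, while ato, sim, ss and Clk are coloured at the centre only.

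Members not in the table could also adjoin listed genes. The segmentation gene h, absent from the table, lay at the end of a run of 6 listed genes, which begins beside it with the arrestin gene Arr2. The shared PAS partner tgo lay beside a run of 3 listed genes, neur, asRNA:CR31429 and hyx. Dimmed lay beside the listed lncRNA:CR42696, Met beside the phosphatase gene Ptp10D, and sc beside l(1)sc. Of the 29 members not in the table, 17 had no listed gene among the 5 on either side, among them da, Max, bigmax, cyc, twi, Hand and HLH54F. The same held for 4 of the 15 listed members. The matching shares over all protein-coding genes were not computed, so these counts describe the members only.

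By chromosome arm, the listed members were 5 of 13 on 3R, 4 of 8 on 3L, 3 of 9 on X, 2 of 5 on 2R and 1 of 8 on 2L. Mitf, the only member on chromosome 4, was not listed. The shares of all protein-coding genes were 7.59% on 3R, 9.09% on 3L, 7.46% on X, 8.28% on 2R and 6.29% on 2L. No member had a transcript entry besides its gene entry, which is the other kind of entry in the table.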

How the data were processed

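Targeted DamID was done by the authors on larval brains with 3 fusion proteins and Dam alone. Per the labels' protocols, DNA of whole brains went through DpnI, adaptor ligation, DpnII, PCR and sonication before sequencing. Per the labels, each fusion was set against Dam alone and averaged. The data analysed were 1 deposited table of 1584 entries (1512 gene and 72 transcript entries) with names only and no measured values. The sources used here do not state the aligner, peak caller, threshold, genome build or the rule that tied peaks to genes. If that rule reaches over a distance, 1 peak can put several adjacent genes in the table.

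Entries were matched by name to a RefSeq gene table (Release 6 plus ISO1 MT), by current symbol for 1457 gene entries and by an older name for 50, with 5 not matched. They gave 1504 genes, 1082 of them protein-coding. For the members h and dys the table's current symbols are hry and dysf. Gene length, gene order and overlaps come from the RefSeq table, and its positions are not printed. Classes were reported as counts and shares with exact Clopper-Pearson 95% intervals, beside the share of all protein-coding genes and of each of 10 length deciles. No hypothesis test was run, since the table has no replicates. All 44 members are named. The members, classes and lists were chosen with earlier results of these data known. The matching by current symbol was run on a planted list drawn from the same reference, which checks the code only. Matching by older names was not tested. The tools were Python 3.11.15 with pandas 2.3.3, scipy 1.17.1 (intervals), numpy 2.4.6 and matplotlib 3.10.9 (plots).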

Additional observations from a re-analysis of the deposited data

How the results depend on the processing

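Of 64 recomputed values, 56 stayed within the exact 95% interval of the value reported. The 9 mesodermal values among these could only be 0, since no mesodermal member was listed. The intervals of the small classes are wide and admit most recounts of the same genes. The count of 56 thus says little about how stable the class shares are. The share of members listed stayed between 30.6% and 38.9% by column used for lookup, with all older names (added after seeing the data), without kn, and without each chromosome arm in turn. Keeping 1 member per run within 10 kb removed no member, so its 6 values are the same by construction and check nothing. Its ratio to the background share was 4.39 over all protein-coding genes, 4.04 over all annotated genes and 2.98 at the members' length decile shares. Counting only names with a transcript entry gave 0% for all members and for the proneural, neuronal differentiation, PAS and growth or metabolic classes, because no member has such an entry. Without arm X, which carries Mnt, the growth or metabolic share was 0%. A setting added after seeing the data counted only listed members whose nearest coding genes on both sides are not listed. It gave 15.9% for all members and 14.3% for the neuronal differentiation class, where Oli remained. These shares cannot be set against the 7.76% of all protein-coding genes, which was not restricted in this way. The restriction would take out 68.4% of all listed protein-coding genes, beside 53.3% of the listed members. The background share under it was not computed. The lookup by FlyBase identifier was not run, because the reference table used here does not pair members with those identifiers. No paired analysis was possible because the table carries no replicates. With classes of 1 to 10 genes, 1 gene more or less moves a share by at least 10 percentage points. Depth is unknown.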
